A study of Mus musculus with 7 samples.

Results

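The genes described here encode the proteases that cut extracellular matrix and cell surface proteins, and the inhibitors that restrain them: matrix metalloproteinases (MMPs), ADAM and ADAMTS proteases, and the tissue inhibitors of metalloproteinases (TIMPs). The 34 symbols were taken from a fixed list and matched to Entrez gene IDs through RefSeq, which found all 34 among the 23725 genes of each count file. They were measured in GFP-positive osteoblasts from 4 mice bearing lung tumors and 3 tumor-free mice, with 1 library per mouse. All mice were male, on the C57BL/6 background, and carried the conditional KrasLSL-G12D/WT and p53Flox/Flox alleles (called KP) together with an osteocalcin-driven GFP reporter (Ocn-GFP), so these alleles are shared by both groups. Lung tumors had been induced with AdCre, an adenovirus that expresses Cre recombinase, given into the trachea 14 weeks before the mice were killed; the labels repeat this treatment for every mouse, so whether tumor-free mice received AdCre is not known here. In each group 1 mouse was 23 weeks old (tumor-bearing replicate 4 and tumor-free replicate 3), and the others were 31 weeks old. From each mouse 2000 cells were sorted from collagenase-digested bone pooled with lineage-depleted marrow, as cells positive for GFP and negative for CD45, CD31 and the erythroid marker spelled Terr119 in the design text. The reporter marks cells by osteocalcin promoter activity, so the sort may hold osteoblasts of several stages. The comparison asks whether a tumor in the lung is accompanied by other levels of these transcripts in osteoblasts of distant bone.

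MMPs, ADAMs and ADAMTS enzymes hold a zinc ion in the active site and are made as inactive precursors that need the removal of a propeptide. Secreted MMPs cut collagens and other matrix proteins, membrane-type MMPs do so at the cell surface, ADAMs mostly shed the outer part of membrane proteins, and ADAMTS enzymes cut proteoglycans or trim procollagens. TIMPs bind the active site of these enzymes. In bone, osteoblasts use collagenase and membrane-type MMPs to remodel type I collagen, and osteoclasts and cartilage cells bring proteases of their own.

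Library totals ranged from 77127 to 169774 counts with a tumor and from 102144 to 122911 without. A gene with 0 counts can therefore still reach 17.7 to 38.9 CPM (counts relative to library size) in a single library, the level of 3 counts. These limits and all count-based spreads cover counting error only, since the sources used here do not say whether counts are reads or distinct molecules. The osteoblast genes Col1a1 (23 to 96 counts per library) and Runx2 (7 to 35) were present in every library, while osteocalcin itself, Bglap, had 0 to 2 counts. Of the proteins excluded by the sort, Ptprc (CD45) had 0 to 2 counts and Pecam1 (CD31) had 0 in all libraries. In bulk libraries such as these, fewer cells of a type and less RNA per cell cannot be told apart.

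Counts of the protease system were few at this depth and unevenly distributed over its members. Of the 34 genes, 15 (44.1%) had counts in all 7 libraries, 11 in some and 8 (23.5%) in none. Over all 23725 genes, 17.7% had counts in all libraries and 43.8% in none. These 34 genes were thus detected more often than genes at large. They were chosen with earlier results of these data known, so this does not describe the protease families as a whole. Of 25 further MMP, ADAM and ADAMTS genes, 11 had no counts in any library. The 34 genes together held 1786 of 830673 counts. Their share of a library was 0.158%, 0.192%, 0.227% and 0.151% in tumor-bearing replicates 1 to 4, and 0.236%, 0.305% and 0.219% in tumor-free replicates 1 to 3. These shares overlapped between the groups, since tumor-bearing replicate 3 lay above tumor-free replicate 3. Adam22 alone made up 30.5% of the counts, and the 5 genes with most counts 68.1%. With Adam22 left out, the share was 0.137%, 0.130%, 0.155% and 0.118% with a tumor, against 0.157%, 0.175% and 0.170% without. The groups then did not overlap, but by a narrow margin between tumor-bearing replicate 3 (0.155%) and tumor-free replicate 1 (0.157%); as a sum over chosen genes, trimmed after the values were seen, this share was not tested. By class, the 2 ADAMs without a protease site received 621 counts, the 5 membrane-type MMPs 343, the 5 proteoglycan-cleaving ADAMTS genes 217, the 4 collagenases and gelatinases 192 and the 4 TIMPs 166. The 7 ADAMs with a protease site had 114, and the 3 stromelysins and other secreted MMPs 47.

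**Figure D1:**
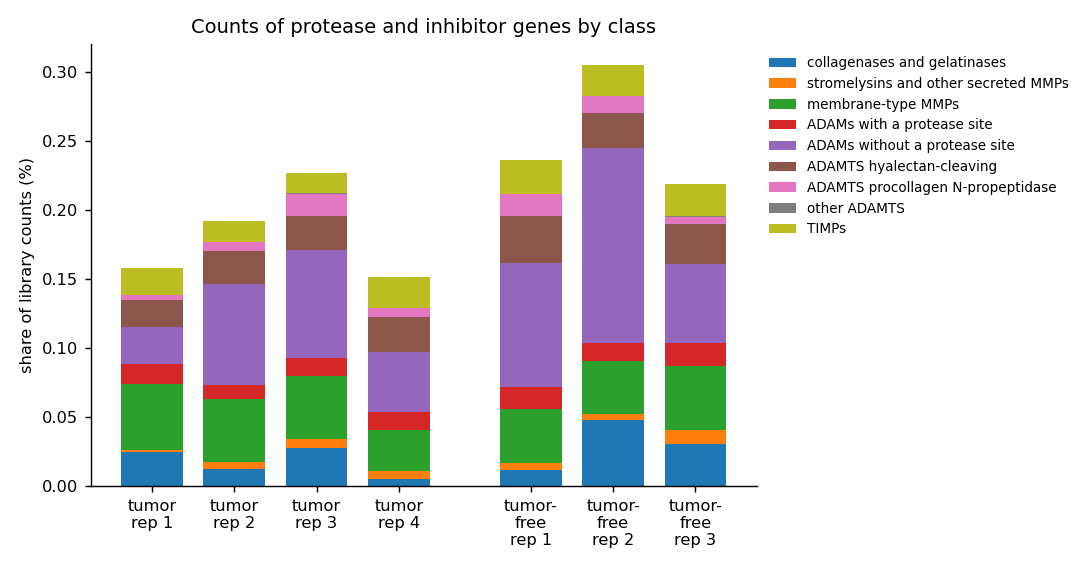
Share of each library's counts (percent, stacked bars) that fell on each class of protease and inhibitor genes, in the 4 tumor-bearing libraries (left) and the 3 tumor-free libraries (right). The whole bar runs from 0.151% to 0.227% with a tumor and from 0.219% to 0.305% without, and the ADAMs without a protease site, mostly Adam22, make the tallest segment in several libraries.

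Among collagenases, Mmp13, the interstitial collagenase typical of rodent osteoblasts and hypertrophic cartilage, was sparse. It lies on chromosome 9 (7272514 to 7283333, mm10) and had 10, 1, 1 and 3 counts in tumor-bearing replicates 1 to 4, and 8, 5 and 1 counts in tumor-free replicates 1 to 3. High and low libraries occurred in both groups, with a mean of 43.4 ± 62.8 CPM for tumor-bearing mice (n = 4, SD here and below) and of 42.8 ± 34.9 CPM for tumor-free mice (n = 3), and the gene did not pass the filter on low counts that precedes the test. Transcription of Mmp13 in osteoblasts is known to depend on the factors RUNX2 and AP-1, so its promoter is shown beside that of Mmp14, the MMP with most counts. Each sequence is from RefSeq (GRCm38.p6, the assembly of mm10) and runs from 250 bases before to 50 bases after a start site. Each is on the plus strand, at chr9:7272264-7272563 for Mmp13 and chr14:54431348-54431647 for Mmp14. Capitals mark matches to an AP-1 motif (TGACTCA or its reverse complement TGAGTCA) and to a RUNX motif (AACCACA or its reverse complement TGTGGTT).
Mmp13: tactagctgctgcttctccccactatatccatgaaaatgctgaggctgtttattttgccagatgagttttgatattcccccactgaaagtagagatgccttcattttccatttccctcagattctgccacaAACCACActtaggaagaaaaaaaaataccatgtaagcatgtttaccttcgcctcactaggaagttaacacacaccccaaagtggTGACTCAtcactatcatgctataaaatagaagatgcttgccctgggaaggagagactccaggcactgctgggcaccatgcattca
Mmp14: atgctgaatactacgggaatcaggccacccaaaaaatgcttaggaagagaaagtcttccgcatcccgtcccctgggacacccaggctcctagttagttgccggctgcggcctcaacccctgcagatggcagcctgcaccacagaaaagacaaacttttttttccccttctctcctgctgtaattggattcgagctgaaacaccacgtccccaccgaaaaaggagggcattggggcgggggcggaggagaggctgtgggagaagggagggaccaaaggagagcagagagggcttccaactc
The Mmp13 promoter held the RUNX letters 119 bases and the AP-1 letters 35 bases before the start site; the Mmp14 promoter held neither in this window. Of the 22 members matched to a RefSeq promoter, Mmp13 was the only 1 with the RUNX letters, and 3 (Mmp13, Mmp3 and Adam19) had the AP-1 letters in at least 1 promoter. Over 32851 promoters of the same length 5.27% held the RUNX letters, 5.20% the AP-1 letters and 0.301% both. These matches are letters in a sequence, and the counts do not test binding.

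Mmp8, the collagenase that neutrophils store in granules, had more counts than Mmp13 and the widest spread of the collagenases. It lies in the same gene cluster (chromosome 9, 7558429 to 7568486) and had 6, 8, 44 and 2 counts in tumor-bearing replicates 1 to 4, and 3, 53 and 33 counts in tumor-free replicates 1 to 3. Tumor-bearing replicate 3 and tumor-free replicates 2 and 3 were high, the other 4 libraries low, and the groups overlapped. Mmp8 averaged 107 ± 99.2 CPM in tumor-bearing and 248 ± 211 CPM in tumor-free mice, a log2 fold change of -1.29 with a 95% interval of -3.43 to 0.86. Leaving out single libraries moved this value: to -0.52 when tumor-free replicate 2 was dropped, -0.65 for tumor-free replicate 3, -0.70 for tumor-bearing replicate 4 and -2.10 for tumor-free replicate 1. Of 11 neutrophil markers 6 had 0 counts in all libraries, among them the granule genes Elane, Ltf, Camp, Ngp and Lcn2, and Mpo, Prtn3 and S100a9 had 1 to 2 counts in all libraries together. The receptors Cxcr2 and Csf3r held nearly all of the summed neutrophil level, which was 1991 to 3021 CPM of unscaled totals with a tumor and 2164 to 2555 CPM without. The part of other cells in the Mmp8 counts was not tested.

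The gelatinases were low or not detected. Mmp2, which cuts denatured collagen and is activated at the cell surface by MMP14 with TIMP2, had 1 to 3 counts in each of the 7 libraries. Mmp9, the gelatinase of osteoclasts and neutrophils, had 0 of 830673 counts over all libraries, which allows a level of up to 3.61 CPM. Of 9 osteoclast markers Calcr, Dcstamp and Ocstamp had no counts, Acp5 had 1, Oscar 2 and Ctsk 5 in all 7 libraries together, while Atp6v0d2, a proton pump subunit, had 32, with 1 to 10 in every library. Their summed level was 389 to 493 CPM with a tumor and 212 to 362 CPM without, ranges that did not overlap, most of it from Tnfrsf11a and Itgb3, which other cells also express. In CPM the Tnfrsf11a groups did not overlap, at 245.6 to 288 with a tumor and 102 to 233 without. When no filter was applied, the 6 osteoclast markers with counts had log2 fold changes above 0, with a median of 1.11. Acp5, Oscar and Ctsk are among these 6, so the median rests partly on very few counts. Over all 13344 genes with a count, 7084 lay above 0, with a median of 0.07. The 2 osteoclast markers that passed the filter had a median of 0.32. Of these 2, 0 were called and 0 had an unadjusted p under 0.05 (edgeR). The part of osteoclasts in the protease counts was not tested.

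Of the remaining secreted MMPs, Mmp19, which cuts basement membrane proteins, had 1, 5, 11 and 7 counts with a tumor and 5, 5 and 7 counts without. Its spread was no larger than counting noise, and in CPM it averaged 44.0 ± 21.0 in tumor-bearing and 49.2 ± 7.0 in tumor-free mice. Of the stromelysin genes, Mmp3, which encodes an enzyme with a broad range of matrix substrates, had 5 counts in all, and Mmp11 had 1 count. Tumor-free replicate 3 held 4 of the Mmp3 counts and the Mmp11 count.

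The membrane-type gene Mmp14 had more counts than any other listed MMP. It encodes the collagenase that acts at the cell surface and is needed for normal bone growth in mice, and lies on chromosome 14 (54431598 to 54442456). Mmp14 had 439, 441, 348 and 239 CPM in tumor-bearing replicates 1 to 4 (32, 42, 62 and 35 counts), and 321, 348 and 355 CPM in tumor-free replicates 1 to 3 (33, 41 and 44 counts). Tumor-bearing replicates 1 and 2 were the highest, replicate 3 lay among the tumor-free libraries, and the 23-week tumor-bearing library was the lowest of all 7. The means were 367 ± 95.8 CPM in tumor-bearing and 341 ± 17.8 CPM in tumor-free mice. The log2 fold change was 0.029 (95% interval -0.58 to 0.64), and its sign turned in 6 of 19 alternative fits. Counts per kilobase of the longest GENCODE transcript put Mmp14 first of the 34 genes (89.3 over all libraries), ahead of Mmp8 (61.4) and Adam22 (59.0); undivided counts put Adam22 first, with 545, and Mmp14 second, with 289. A method that counts transcript ends does not need division by length, so both orders are given.

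The other membrane-type genes were low. Mmp16 had 5, 3, 13 and 7 counts with a tumor and 7, 6 and 11 counts without, or 55.2 ± 19.3 against 69.2 ± 18.9 CPM. Mmp17, whose protein is held in the membrane by a lipid anchor, had 2 counts, both in tumor-bearing replicate 3, and Mmp15 and Mmp24 had none.

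Of the 34 genes, Adam22 had most counts. Its protein, which lacks the zinc-binding site and is known as a receptor for the secreted protein LGI1 at synapses, is encoded on chromosome 5 (8072347 to 8368312). The gene had 219, 641, 685 and 321 CPM in tumor-bearing replicates 1 to 4 (16, 61, 122 and 47 counts), and 788, 1358 and 467 CPM in tumor-free replicates 1 to 3 (81, 160 and 58 counts). Tumor-bearing replicates 2 and 3 lay above tumor-free replicate 3, so the groups overlapped, although the 2 highest libraries were tumor-free and the 2 lowest tumor-bearing. Adam22 averaged 467 ± 231 CPM in tumor-bearing and 871 ± 451 CPM in tumor-free mice (log2 fold change -0.88, 95% interval -1.78 to 0.02). Among 31-week mice alone the fold change was -1.03 (SE 0.49), and without tumor-free replicate 2, the highest library, it was -0.58 (SE 0.45). Adam23, which also lacks the protease site and binds LGI1, had a spread no larger than counting noise, with 5, 11, 11 and 14 counts with a tumor and 11, 14 and 10 counts without. Its means were 85.4 ± 24.9 CPM in tumor-bearing and 102 ± 19.6 CPM in tumor-free mice (log2 fold change -0.26, 95% interval -1.08 to 0.55). Dropping tumor-bearing replicate 4 gave -0.54, and dropping tumor-bearing replicate 3 gave -0.13.

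Of the 7 listed ADAMs with a protease site only Adam19, which cleaves neuregulins, was detected in every library. It lies on chromosome 11 (46054502 to 46147347) and had 10, 8, 18 and 17 counts with a tumor and 15, 12 and 15 counts without. Its spread between libraries was no larger than counting noise, at 109.6 ± 22.5 CPM in tumor-bearing and 123 ± 22.1 CPM in tumor-free mice (log2 fold change -0.17, 95% interval -0.87 to 0.54; -0.31 without tumor-free replicate 2 and 0.014 without tumor-free replicate 1). Annotated exons of Gm16033, on the opposite strand, overlap the last 500 exon bases of Adam19, and no source used here gives the strand setting of the counting. Adam10, which cleaves Notch receptors and cadherins, had 7 counts in all 7 libraries, and Adam17, which releases TNF and EGF receptor ligands, had 10. Adam9 and Adam12 had 1 count each, and Adam8 and Adam15 had none.

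Among the 9 listed ADAMTS genes the aggrecan-cleaving Adamts4 and the procollagen-trimming Adamts3 had most counts. Adamts4 (chromosome 1, 171250129 to 171262267) had 137, 116, 95.5 and 109 CPM in tumor-bearing replicates 1 to 4, and 214, 119 and 88.6 CPM in tumor-free replicates 1 to 3. Tumor-free replicate 1 stood above the other 6 libraries, which overlapped. The log2 fold change was -0.31 (95% interval -1.12 to 0.50) and ranged from -0.60 without tumor-bearing replicate 4 to 0.087 without tumor-free replicate 1. Adamts3, known for removing the amino-terminal propeptide of procollagen II, lies on chromosome 5 (89673841 to 89883668) and had 3, 6, 27 and 10 counts with a tumor and 16, 15 and 6 counts without. It averaged 81.0 ± 48.5 CPM in tumor-bearing and 110.4 ± 55.6 CPM in tumor-free mice (log2 fold change -0.30, 95% interval -1.40 to 0.80), with high libraries in both groups; dropping 1 library moved the value to between -0.59 (tumor-bearing replicate 4) and -0.094 (tumor-free replicate 1), with -0.52 for tumor-free replicate 3, -0.12 for tumor-bearing replicate 1 and -0.15 for tumor-bearing replicate 2.

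Adamts5, the other main aggrecanase of the mouse, had 2, 5, 18 and 9 counts with a tumor and 7, 5 and 16 counts without. Adamts9, which cleaves versican, had 3, 8, 7 and 11 counts with a tumor and 6, 10 and 7 counts without. Neither gene passed the low count filter, and both ranged over the same levels in the groups (60.6 ± 30.6 against 79.8 ± 44.4 CPM for Adamts5, and 59.9 ± 23.0 against 66.6 ± 15.9 CPM for Adamts9). Adamts1, a further protease of aggrecan and versican, had 0 counts in all libraries, although it lies only 55043 bases from Adamts5 on chromosome 16. Adamts15 had 2 counts, both in tumor-free replicate 2. Adamts6 and Adamts10, linked to the fibrillin microfibrils, and Adamts12, linked to cartilage oligomeric matrix protein, had 1 count each.

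Some cartilage genes were present beside these proteases. Acan, the aggrecan substrate, had 1 to 13 counts per library, Col2a1 1 to 92 and Sox9 41 to 166, while Col10a1, the marker of hypertrophic cartilage that also makes Mmp13, had 0 in all libraries. Comp had 36 counts in all 7 libraries together, Col9a1 10, Cnmd 9, Snorc 6, Matn3 4, Matn1 1 and Ihh 0. The 11 cartilage markers, with Sox9 giving 674 of their counts, summed to 583 to 2782 CPM with a tumor and 935 to 1116 CPM without, with 2 of them at 0 throughout. Tumor-bearing replicate 2, at 2782 CPM the highest for cartilage genes, had 1 count of Mmp13. The part of cartilage cells in the ADAMTS counts was not tested.

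Of the inhibitors, Timp3 carried most counts. It encodes the TIMP that is bound to matrix and inhibits ADAM and ADAMTS enzymes besides MMPs, and lies on chromosome 10 (86300412 to 86349505). Timp3 had 178, 126, 107 and 171 CPM in tumor-bearing replicates 1 to 4 (13, 12, 19 and 25 counts), and 146, 212 and 193 CPM in tumor-free replicates 1 to 3 (15, 25 and 24 counts). Tumor-bearing replicates 2 and 3 were the lowest and the other libraries overlapped. The means were 145 ± 34.5 CPM in tumor-bearing and 184 ± 34.2 CPM in tumor-free mice (log2 fold change -0.35, 95% interval -1.02 to 0.31; -0.49 without tumor-bearing replicate 1 and -0.18 without tumor-free replicate 2). Timp3 lies within Syn3, a synapsin gene on the opposite strand, and annotated exons of the pair overlap in the last 500 exon bases of Timp3. Syn3 had 19 to 133 counts per library, and no source used here gives the strand setting of the counting, so reads of the pair cannot be told apart. Timp2, which both inhibits MMPs and helps MMP14 to activate MMP2, had 2, 3, 5 and 6 counts with a tumor and 10, 3 and 4 counts without. Timp1, an inhibitor of most soluble MMPs, and Timp4 had 0 of 830673 counts, which allows up to 3.61 CPM for each.

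**Figure D2:**
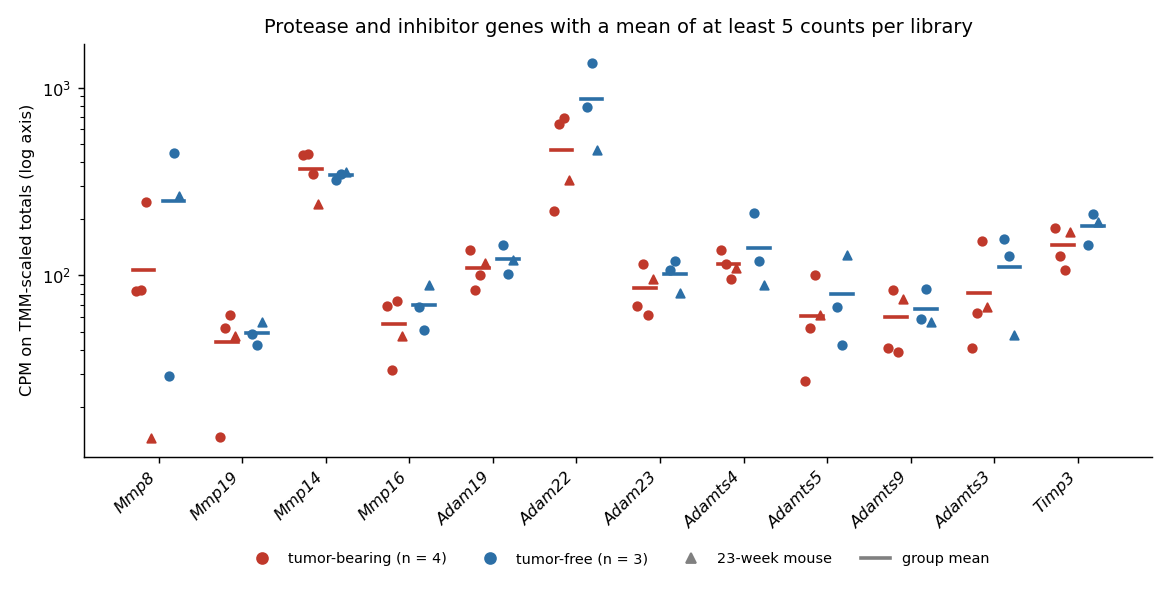
Level in CPM (log axis) of the 12 protease and inhibitor genes with a mean of at least 5 counts per library; each point is 1 mouse, tumor-bearing (red, n = 4) left of tumor-free (blue, n = 3), triangles are 23-week mice and lines are group means. The groups overlap for all 12 genes; Mmp14 lies between 239 and 441 CPM in all 7 libraries, whereas Mmp8 runs from 13.6 to 449.9 CPM.

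The genes differed in how far libraries varied beyond counting noise. For the 12 genes with a mean of at least 5 counts, the spread of counts over the 7 libraries was set against that expected from library totals alone, as a chi-square per degree of freedom (6 degrees of freedom), where 1 stands for counting noise. Adam22 reached 22.3 and Mmp8 16.7, and no other of the 12 exceeded 5. Among all 3492 genes with such counts the median was 1.91, and 24.1% exceeded 5. Adam19 (0.440), Mmp19 (0.551), Adam23 (0.580), Adamts9 (0.622) and Mmp16 (0.783) varied less than counting noise, as did 21.99% of all these genes. Timp3 (1.08) and Mmp14 (1.24) were close to it. For these 7 genes the spread between mice was therefore about what the number of counts allows, whichever group the mice belonged to.

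**Figure D3:**
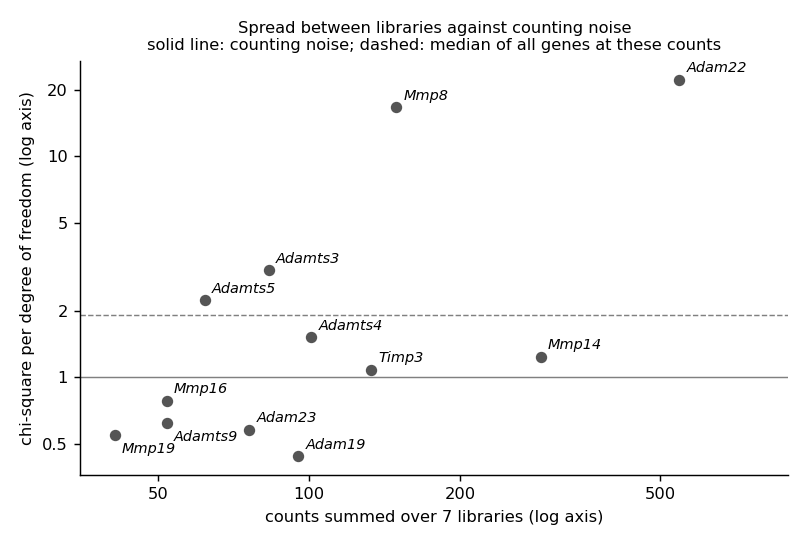
Chi-square per degree of freedom over 7 libraries (log axis) against the summed counts (log axis) for the 12 protease and inhibitor genes with a mean of at least 5 counts; the solid line at 1 is counting noise and the dashed line at 1.91 the median of all 3492 genes at such counts. Adam22 (22.3) and Mmp8 (16.7) stand far above both lines.

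No protease or inhibitor gene differed significantly between tumor-bearing and tumor-free mice. Of the 34 genes, 8 passed the low count filter (Mmp8, Mmp14, Adam19, Adam22, Adam23, Adamts3, Adamts4 and Timp3), and 0 of them were called by the quasi-likelihood test of edgeR, with age as a covariate (adjusted p = 0.990 for 7 genes and 0.997 for Mmp14, Benjamini-Hochberg over 2495 genes). It called 0% of all 2495 genes tested. At an unadjusted p under 0.05 there were 0 of the 8, beside 2.69% of all genes, and Adam22 came nearest (unadjusted p = 0.0536, edgeR). DESeq2 and limma voom also called 0 of the 8; at an unadjusted p under 0.05 DESeq2 had 0 and limma voom 1, which was Adam22 (unadjusted p = 0.0439). Groups that did not overlap in CPM were found for 0 of the 8 and for 3.53% of all genes (2.20% with tumor-bearing mice higher, 1.32% with them lower).

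The 8 log2 fold changes had a median of -0.30, with 7 below 0 and 1 above, beside a median of 0.04 over all 2495 genes, of which 1144 lay below 0 and 1351 above. When no filter was applied, the 26 genes with any count had 20 values below 0 and 6 above, with a median of -0.28. The median over 13344 genes was 0.07. Further MMP, ADAM and ADAMTS genes outside the 34 went the other way, with 9 above 0, 5 below and a median of 0.11. Of 16 osteoblast and osteocyte markers, 7 were tested and 0 called, and 0 had an unadjusted p under 0.05 (edgeR), with 5 below 0 and 2 above and a median of -0.43. Their summed level was 1228 to 1659.6 CPM with a tumor and 1603 to 2653 CPM without, ranges that overlapped, and its part in the protease values was not tested. These counts and medians describe chosen genes, several of which rest on 1 or 2 counts, and each interval of the 8 protease and inhibitor genes includes 0. The intervals were wide, the narrowest for Mmp14 (-0.58 to 0.64) and the widest for Mmp8 (-3.43 to 0.86), so that a change within them could not be told from none.

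**Figure D4:**
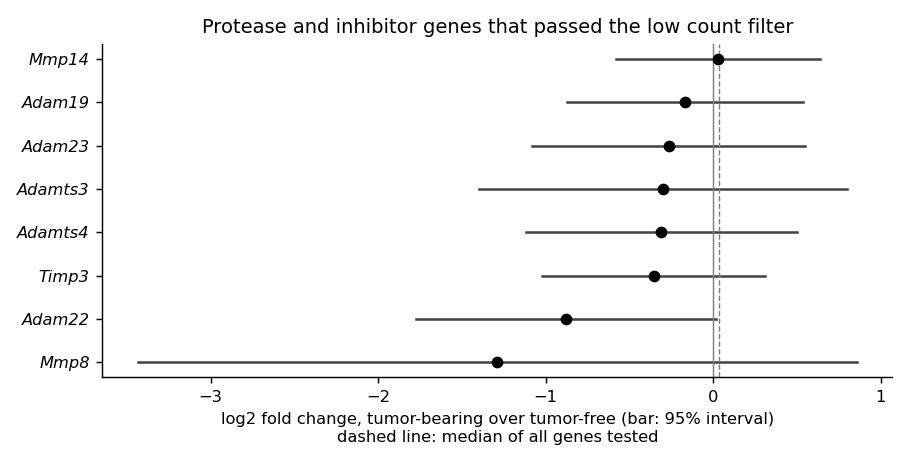
Log2 fold change of tumor-bearing over tumor-free osteoblasts with its 95% interval for the 8 protease and inhibitor genes that passed the low count filter; the dashed line is the median of all 2495 genes tested (0.04). All 8 intervals include 0, from Mmp14 at 0.029 to Mmp8 at -1.29, and Adam22 at -0.88 reaches 0.02 at its upper end.

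No other listed gene of the protease system was called. Of 25 further MMP, ADAM and ADAMTS genes, 2 were tested and 0 called (2 above 0, median 0.13). With no filter 9 lay above 0 and 5 below, with a median of 0.11. Adam28, a protease of lymphocytes, had 865 ± 302 CPM in tumor-bearing and 753 ± 182 CPM in tumor-free mice (log2 fold change 0.18, SE 0.31), more counts than any of the 34 genes, and Adamts17 had 195 ± 24.3 against 183 ± 48.7 CPM (0.08, SE 0.30). Of 30 genes for activation, anchoring and clearance of proteases, 6 were tested and 0 called (3 above 0 and 3 below, median 0.05; with no filter 10 above and 16 below, median -0.27). The urokinase gene Plau, which starts the plasmin cascade that activates MMPs, had 831 ± 581 CPM in tumor-bearing and 658 ± 129.6 CPM in tumor-free mice (log2 fold change 0.28, SE 0.48), with tumor-bearing replicate 2 highest at 1692 CPM. Pcsk5, a proprotein convertase, had 427 ± 122 against 523 ± 182 CPM (-0.38, SE 0.32). Tspan15, a tetraspanin that directs ADAM10 to its substrates, had 782, 819.9, 652 and 716 CPM with a tumor and 593, 543 and 645 CPM without. The Tspan15 groups did not overlap, and its log2 fold change was 0.32 (SE 0.20, adjusted p = 0.990, edgeR). Tll1, a protease that trims procollagen, had 81.4 ± 33.0 against 73.4 ± 28.1 CPM (0.23, SE 0.43).

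Substrates showed no calls either. Of 24 matrix substrate genes, 8 were tested and 0 called, with 5 below 0 and 3 above and a median of -0.35. With no filter 14 lay below 0 and 9 above, with a median of -0.37. Col1a1, cut by MMP13 and MMP14 as type I collagen, had 289.7 ± 189.8 CPM in tumor-bearing and 559.6 ± 325 CPM in tumor-free mice (log2 fold change -1.06, SE 0.52), and its partner chain Col1a2 had 162 ± 47.1 against 231 ± 29.8 CPM (-0.53, SE 0.31). Ncan, a proteoglycan of the aggrecan family best known from brain, had 722 ± 134 against 951 ± 126 CPM (-0.39, SE 0.22), and Sparc had 306 ± 191 against 389 ± 43.6 CPM (-0.47, SE 0.43). Of 20 membrane proteins shed by ADAMs, 6 were tested and 0 called, with 3 on either side and a median of 0.02; with no filter 11 lay above and 6 below, with a median of 0.16. Jag1, a Notch ligand, had 1809 CPM in tumor-free replicate 1 and 109.7 to 220.7 CPM in the other 6 libraries (log2 fold change -1.91, SE 0.85). Notch2, a receptor that ADAM10 cleaves, had 2208 CPM in tumor-bearing replicate 1 and 169 to 428 CPM in the others (1.09, SE 0.80). Fcer2a (0.06, SE 0.25) and Cdh2 (0.13, SE 0.39) were nearer 0. None of the genes named here passed (adjusted p of at least 0.990, edgeR).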

How the data were processed

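The authors deposited raw counts by Entrez gene ID for each mouse, without normalization. Per the labels' protocols, RNA 3′ ends were sequenced with a custom CelSeq protocol using molecular identifiers; TopHat2 2.0.10, SAMtools and mm10 appear in the submitters' processing notes. No source used here gives the counting program, annotation or strand setting. RefSeq (GRCm38.p6) gave symbols to 23666 of 23725 IDs. Genes were filtered with filterByExpr by group (minimum count 10, minimum total 15) and scaled by TMM (factors 0.945 to 1.05). Differences, tumor-bearing over tumor-free, were tested with edgeR 4.0.16 in R 4.3.3 (glmQLFit robust, glmQLFTest, age as a factor; Benjamini-Hochberg at 0.05), with DESeq2 1.42.0 and limma 3.58.1 as alternatives. CPM are on library totals multiplied by TMM factors; mean values are given with SD. The test was checked for fold changes and false calls on counts simulated from its own model, without an age effect. How often it would find a real change is not given here. Genes were described library by library if they passed the filter or had a mean of at least 5 counts; up to 4 genes with the smallest p were named per further list, and other genes after their values were seen. Promoters on chromosome 18 were left out. The 34 genes and all lists were chosen with earlier results of these data known. Each library is 1 mouse, so p-values reflect spread between libraries, which holds differences between mice together with counting and library noise.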

Additional observations from a re-analysis of the deposited data

How the results depend on the processing

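The count of protease and inhibitor genes called was 0 in the reported fit and in each of 19 alternatives: no age term, 31-week mice only, replicate block, DESeq2, limma voom, RLE, upper-quartile and total-count scaling, no filter, a minimum of 30 counts in 3 or more libraries, non-robust estimation, each of 7 libraries left out, and a filter given the model, which was chosen after seeing the data. The count over all genes was 0 in each as well. Of 145 alternative log2 fold changes of the 8 genes, 137 kept their sign and none passed. Mmp14 turned to -0.039 in limma voom and to -0.0011 with the stricter filter, and ranged from -0.089 to 0.27 with 1 library left out. With 1 library left out Adam19 ranged from -0.31 to 0.014 and Adamts4 from -0.60 to 0.087, each turning above 0 without tumor-free replicate 1; the cause was not tested. Without tumor-bearing replicate 3, Mmp8 and Adamts3 were no longer tested. The reported fit did not use the replicate numbers as pairs. Same-numbered deviations from the group means correlated at -0.20, -0.12 and -0.14, and differently numbered ones at -0.019 to 0.21. Centering on the means of such small groups ties these values together, so they cannot decide whether mice were paired. A fit with a replicate block, which left out tumor-bearing replicate 4, gave log2 fold changes of -0.78 for Adam22, -0.69 for Mmp8 and -0.52 for Timp3. That fit had no age term, and its block of replicate 3 set a 31-week tumor-bearing mouse against a 23-week tumor-free mouse. Genes at an unadjusted p under 0.05 numbered 37 with the replicate block and 458 with no filter, beside 67. Depth limits all of this: 18 of the 26 genes with any count were too sparse to test.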

Other observations

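Mmp14 and the TIMPs were also set side by side within each library, a comparison chosen after the values were seen and not tested. Per count of the 4 TIMP genes together, Mmp14 had 2.13, 2.80, 2.58 and 1.13 counts in tumor-bearing replicates 1 to 4, and 1.32, 1.46 and 1.57 in tumor-free replicates 1 to 3. The 31-week tumor-bearing libraries were highest and the 23-week tumor-bearing library, 1 mouse, lowest. Among tumor-free libraries the 23-week mouse, replicate 3 at 1.57, was instead the highest. The ratio rests on 15 to 31 TIMP counts per library, most of them from Timp3, whose reads cannot be told apart from those of Syn3.

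Mmp8 and Mmp13 belong to a cluster of 10 MMP genes on chromosome 9 (7272514 to 7699585, mm10). Mmp8 held 149 of the 209 counts of the cluster and Mmp13 held 29. Mmp12, the macrophage elastase, had 18 counts, with 1 to 5 in every library, and Mmp1a, Mmp1b, Mmp7 and Mmp10 had none. The neighbours Mmp27 and Mmp20, which lie just beyond Mmp8, had 2 and 6 counts, against 44 for Mmp8 in tumor-bearing replicate 3 alone.

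Transcript length was similar across detection classes: the median longest GENCODE vM21 transcript was 4389 bases for the 15 genes found in all libraries, 4593 for the 11 found in some and 4110 for the 8 found in none. Over all genes with a transcript these medians were 3962, 3161 and 1921 bases. A-rich stretches (11 or more A among 12 bases, not counting the final 100), where oligo-dT can prime within a transcript, were present in 5 of the 15, 1 of the 11 and 0 of the 8; over all genes the shares were 37.2%, 19.96% and 8.85%. Of the 5 genes with most counts, Adam22, Mmp14 and Adamts4 had none, Mmp8 had 1 and Timp3 had 3. Only the longest transcript of each gene was searched, so introns were not covered. Annotated exons of 11 of the 34 genes overlap a gene on the opposite strand. For Mmp19, Mmp24, Adam8, Adam17, Adam19 and Timp3 the overlap reaches the last 500 exon bases. Without the strand setting, reads of these pairs cannot be told apart. In addition, 3 TIMP genes lie within synapsin genes, Timp1 in Syn1 (0 counts), Timp3 in Syn3 (582) and Timp4 in Syn2 (16).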
